A study of Arabidopsis thaliana with 24 samples.

Results

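Shoots and roots of treated Arabidopsis plants were compared for how their RNA had changed by the evening. The 12 arrays used were those of 0.5, 1 and 12 h in both organs, chosen by their labelled tissue and time, out of 24 arrays in the series. Every plant was Col-0, a laboratory wild type, grown in 16 h days with Murashige and Skoog medium and treated from day 16. Bleomycin at 1.5 µg/ml, which breaks DNA strands, and mitomycin at 22 µg/ml, which cross-links DNA, had been stirred into the medium 3 h after the lights came on. The 6 groups were therefore shoots at 0.5 h, 1 h and 12 h and roots at 0.5 h, 1 h and 12 h, each with both agents and 2 arrays. The early times lay 3.5 and 4 h after lights on and the 12 h time lay 15 h after lights on, near the end of the light period. All groups carry the agents and untreated plants were not analysed here, so the hour of the day and the length of treatment cannot be told apart.

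Plant organs share a circadian clock, in which genes of the morning and of the evening repress one another. In green shoots that rhythm, together with light, sets photosynthesis by day, starch synthesis and the preparation of starch breakdown for the night. Roots make no sugar of their own and depend on sucrose sent from the shoot, while their tip carries a zone of dividing cells. Breaks and cross-links in DNA switch on repair genes and hold back cell division in plant cells of either organ.

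Each value was a MAS5 signal, the brightness of a probe set summarised by the array maker's method. A 12 h change was the difference in log2(signal + 16) between the 12 h arrays and the mean of the 0.5 h and 1 h groups of the same organ. The tissue difference was the roots change minus the shoots change, so it was positive where roots rose more, or fell less, than shoots. Standard errors (SE) and adjusted p-values are those of limma over 22746 probe sets, and a change is called where the adjusted p was under 0.05. Because 16 is added to each signal, a change in an organ where a gene is dim, at a mean signal under 32, is compressed. In whole organs, fewer cells of a type and less RNA per cell cannot be told apart.

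Median signals of the 24 arrays lay between 36.0 and 47.8, and the Pearson correlation within pairs of the same group was between 0.984 and 0.993. Shoots 12 h replicate 1 correlated with the roots arrays at a mean r of 0.714, against 0.678 to 0.692 for the other shoots arrays except 24 h replicate 2, at 0.711. Of 19 root markers, 3 were measured (PYK10, EXPA7 and EXPA18). Their summed signal was 796 and 588 on the shoots 12 h arrays, against 399 to 619 on the early shoots arrays. In shoots it was also 664 and 725 at 3 h, 679 and 812 at 6 h, and 464 and 486 at 24 h. On the roots arrays used it was 3014 to 3551. PYK10, a glucosidase of root endoplasmic reticulum bodies, rose in shoots by 0.47 (adjusted p = 0.0144), a call lost without any of 3 shoots arrays, among them 12 h replicate 1. Of 13 shoot markers, 4 were measured, and their sum was lower at 12 h in both organs, with 17156 to 19777 early and 9487 and 11729 in shoots, and 316 to 489.7 early and 248 and 245 in roots. Both organs thus carried their own markers. The part of carried-over tissue in the results, root in shoots or shoot in roots, was not tested, also for genes that fell in both organs.

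By 12 h, 6432 of 22746 probe sets had changed in shoots and 2483 in roots. In shoots 3084 rose (13.6% of those tested) and 3348 fell (14.7%), while in roots 1269 rose (5.58%) and 1214 fell (5.34%). Changes were also wider in shoots, with a standard deviation over probe sets of 0.51 against 0.31 on the log2 scale, and 1195 called changes exceeded 2-fold in shoots against 384 in roots. The organs' changes correlated across probe sets at a Pearson r of 0.34 and a Spearman rho of 0.27, which describes these probe sets and not replicates. Called changes were as small as 1.13-fold in shoots and 1.16-fold in roots. Without roots 12 h replicate 1 or replicate 2, the count in roots dropped to 1252 or 1471.

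The change itself differed between organs at 3776 probe sets, 1124 of them by more than 2-fold. Of these, 1908 were more positive in roots (8.39% of those tested) and 1868 more negative (8.21%). Both organs had called changes at 1223 probe sets, which is 49.3% of the roots calls and 19.0% of the shoots calls, and 1048 of them (85.7%) went the same way. A change was counted as shared where both organs passed in the same direction and the tissue difference did not pass, which held for 745 probe sets, 353 rising and 392 falling. A further 303 went the same way by unequal amounts. A change was assigned to 1 organ where it and the tissue difference passed and the 95% interval of the other organ's change lay within 1.5-fold either way. Shoots had 2161 such changes and roots 536, and 175 probe sets changed in opposite directions. For 2761 probe sets called in shoots alone and 623 called in roots alone the tissue difference did not pass, so these are assigned to neither.

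**Figure D1:**
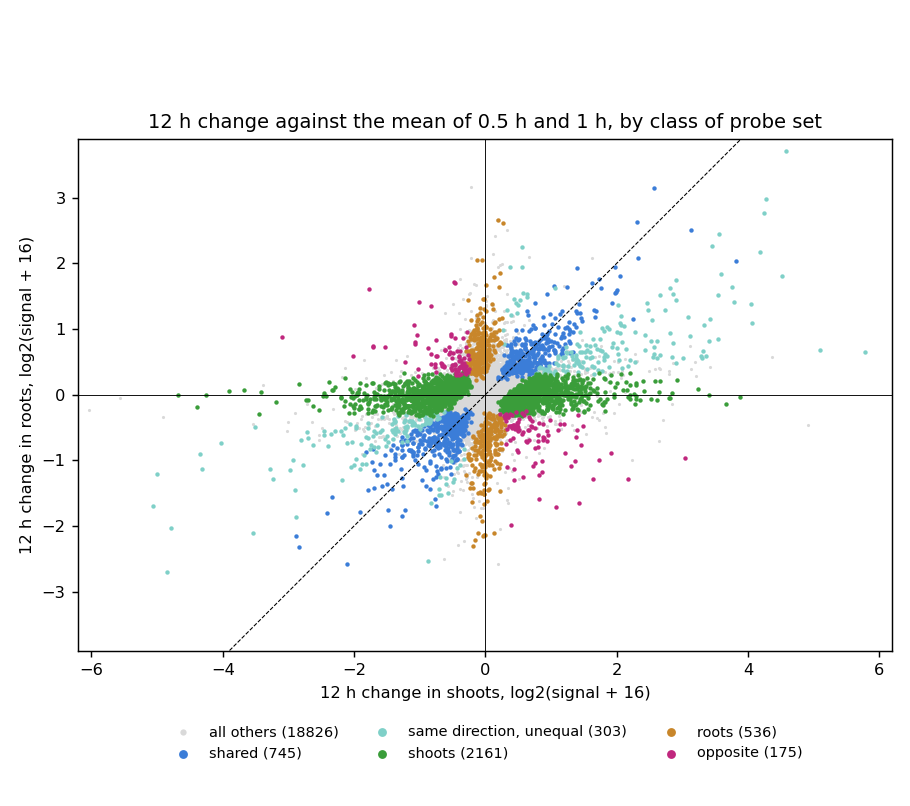
The 12 h change in shoots (x axis) is plotted against that in roots (y axis), both as differences in log2(signal + 16), for 22746 probe sets coloured by class. The 2161 shoots changes spread along the horizontal axis and the 536 roots changes along the vertical one, while the 745 shared changes follow the dashed line of equal change.

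These classes moved with the early time chosen. A single early group has 2 arrays in place of 4, and that was not separated from the difference between the times. With the 0.5 h and the 1 h group each used alone as baseline, 1796 of the 3776 tissue differences kept sign and call with both, as did 1003 of the 2161 shoots changes, 193 of the 536 roots changes, 262 of the 745 shared changes and 47 of the 175 opposite ones. Of the 82 named tissue differences, 7 lost their call against 0.5 h alone (LHCB4.3, ATSPS4F, EXLA1, HTB11, AT5G60250, ATG8H and STZ). Against 1 h alone 12 lost it (GI, AT1G69570, LHCB4.3, BZIP53, COR15A, UGT74B1, HCT, IAA29, 3xHMG-box2, 3xHMG-box1, GRX480 and GSTU22), and AT3G15450 turned sign. Leaving out roots 12 h replicate 1 gave 389 shared, 1255 shoots and 95 opposite changes, and leaving out replicate 2 gave 462, 1325 and 94. Without shoots 12 h replicate 2 the roots changes numbered 301. Of the shoots changes 567 were dim in roots, and of the roots changes 351 were dim in shoots, where a change of that organ's own would be compressed.

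Without shoots 12 h replicate 1, the array closest to roots, 3185 tissue differences were called. Of the 3776 called with it, 2779 (73.6%) kept sign and call and none turned sign. Of the 6432 shoots changes 4338 (67.4%) were kept. Probe sets that stayed in the same class numbered 496 of the 745 shared, 1541 of the 2161 of shoots, 272 of the 536 of roots and 110 of the 175 opposite.

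**Figure D2:**
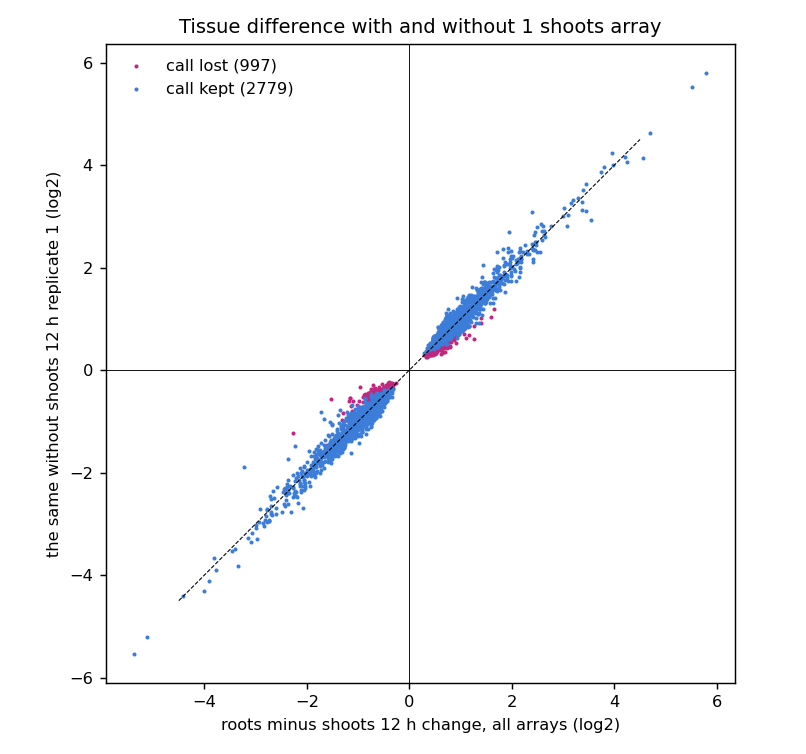
Each point is 1 of the 3776 probe sets with a called tissue difference, plotted as the roots minus shoots 12 h change over all arrays (x axis) and without shoots 12 h replicate 1 (y axis). The 2779 that kept their call lie along the dashed line of equality, and those that lost it lie at smaller differences near the centre.

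Genes are named below from probe sets that the annotation ties to 1 gene, and ranks are over those. A gene of a list counts as measured where such a probe set was found, and other members may lie among the 8730 probe sets left unnamed here. The lists were chosen with earlier results of these data known, so a list's direction is no independent evidence. Counts of list members are to be read against the shares over all probe sets. These were 13.6% rising and 14.7% falling in shoots, 5.58% and 5.34% in roots, and 8.39% positive and 8.21% negative differences. Where few members were measured, a count can rest on single genes. Ranked by the smaller of the organs' changes, the largest shared rise was at AT4G22960, a locus of the DNA damage list with no symbol in the annotation used here. Its shoots signals were 26.6 and 16.6 at 0.5 h, 14.1 and 14.6 at 1 h, and 329.9 and 237 at 12 h, and its roots signals were 35.5 and 31.1 at 0.5 h, 52.9 and 49.1 at 1 h, and 302 and 317 at 12 h. In both organs each 12 h array lay above every early array. The rise was 3.14 (SE 0.17, adjusted p = 2.12e-10) in shoots and 2.50 (SE 0.17, adjusted p = 3.78e-08) in roots, and the tissue difference of -0.63 did not pass (adjusted p = 0.0764). That difference passed against 1 h alone, at -1.003 (adjusted p = 0.021), and was -0.264 (adjusted p = 0.583) against 0.5 h alone. AT4G22960 was thus not counted as shared against 1 h alone. AT2G23910 rose from a lower start in shoots, where it read 2.32 and 0.812 at 0.5 h, 0.438 and 3.33 at 1 h, and 71.9 and 72.1 at 12 h, than in roots, where it read 22.6 and 22.5 at 0.5 h, 21.6 and 17.2 at 1 h, and 192 and 237 at 12 h. Its changes of 2.31 and 2.64 differed by 0.32 (SE 0.17). AT2G23910 was dim in shoots, so its shoots change is compressed by the value added before the log. The small difference therefore does not show that its signals rose by equal folds, and its place among the shared rises depends on that added value. Against the same baseline its 24 h changes were 0.11 (shoots) and -0.23 (roots).

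ATMND1, which takes part in meiotic recombination in Arabidopsis, rose by 1.63 in shoots and 1.70 in roots. Its signals were 95.1 and 50.9 on the shoots 12 h arrays and 93.7 and 112 on the roots 12 h arrays, against 10.2 to 25.2 on the 8 early arrays. The difference between the organs was 0.07 (SE 0.23). Other shared rises of the 8 largest were AT2G21640 (2.05 in shoots and 1.80 in roots), AT2G18190 (1.93 and 1.40) and AT5G49110 (1.65 and 1.29). The tissue difference of AT2G18190 passed against 1 h alone, at -0.81 (adjusted p = 0.0423), and was -0.24 (adjusted p = 0.581) against 0.5 h alone. AT4G14090, at 1.38 and 1.28, lost its roots call without roots 12 h replicate 1 (adjusted p = 0.168). AT1G47400, at 3.81 in shoots and 2.03 in roots, had the widest error of the shared rises, an SE of 0.69 for the tissue difference. Its roots call was lost without either roots 12 h array (adjusted p = 0.0984 and 0.0661).

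Among the 8 largest shared falls, AT5G14120 was the brightest in shoots, with shoots signals of 3068 and 2866 at 0.5 h, 1414 and 1654 at 1 h, and 717 and 577 at 12 h and roots signals of 362 and 421 at 0.5 h, 340.0 and 341 at 1 h, and 126 and 124 at 12 h. It fell by 1.70 in shoots and by 1.43 in roots, and no 12 h array reached the level of an early array of its organ. Its tissue difference passed against 0.5 h alone, at 0.65 (adjusted p = 0.0169), and was -0.11 (adjusted p = 0.793) against 1 h alone. AT1G66760 fell by 2.34 in shoots and 1.56 in roots, with a tissue difference just short of the threshold (adjusted p = 0.0513). AT3G16800 (shoots -1.49, roots -1.75) and AT4G21870 (shoots -1.43, roots -1.44) fell by amounts whose differences were -0.26 and -0.01. ATSBT5.2, a subtilisin-type protease, fell by 1.26 in shoots and 1.39 in roots.

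Some shared falls held different courses within the early hour. AT5G19120 read 1699 and 1688 at 0.5 h, 124 and 147 at 1 h, and 159 and 149 at 12 h in shoots, so its shoots level at 12 h overlapped that at 1 h. In roots it read 761 and 1165 at 0.5 h, 689 and 666 at 1 h, and 322 and 267 at 12 h, and the 12 h arrays lay below all early ones. Against 1 h alone its shoots change was 0.17 (adjusted p = 0.614) and its roots change -1.16 (adjusted p = 0.000657). Its tissue difference was 1.70 (adjusted p = 0.000178) against 0.5 h alone and -1.33 (adjusted p = 0.00202) against 1 h alone. It thus counted as shared only against the mean of the early times. AT1G33055, likewise, read 101 and 73.2 at 0.5 h, 2.33 and 1.69 at 1 h, and 2.12 and 0.930 at 12 h in shoots, with the fall complete by 1 h. Its roots call (change -1.13, adjusted p = 0.0406) was lost without any of 6 arrays, among them roots 12 h replicate 2 (adjusted p = 0.354), and its shoots call without shoots 12 h replicate 2 (adjusted p = 0.0637). AT5G28630 fell by 1.50 in shoots, and its roots 12 h arrays disagreed, at 139.5 and 31.0 (change -1.35). Without roots 12 h replicate 2 its roots change had an adjusted p of 0.377.

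**Figure D3:**
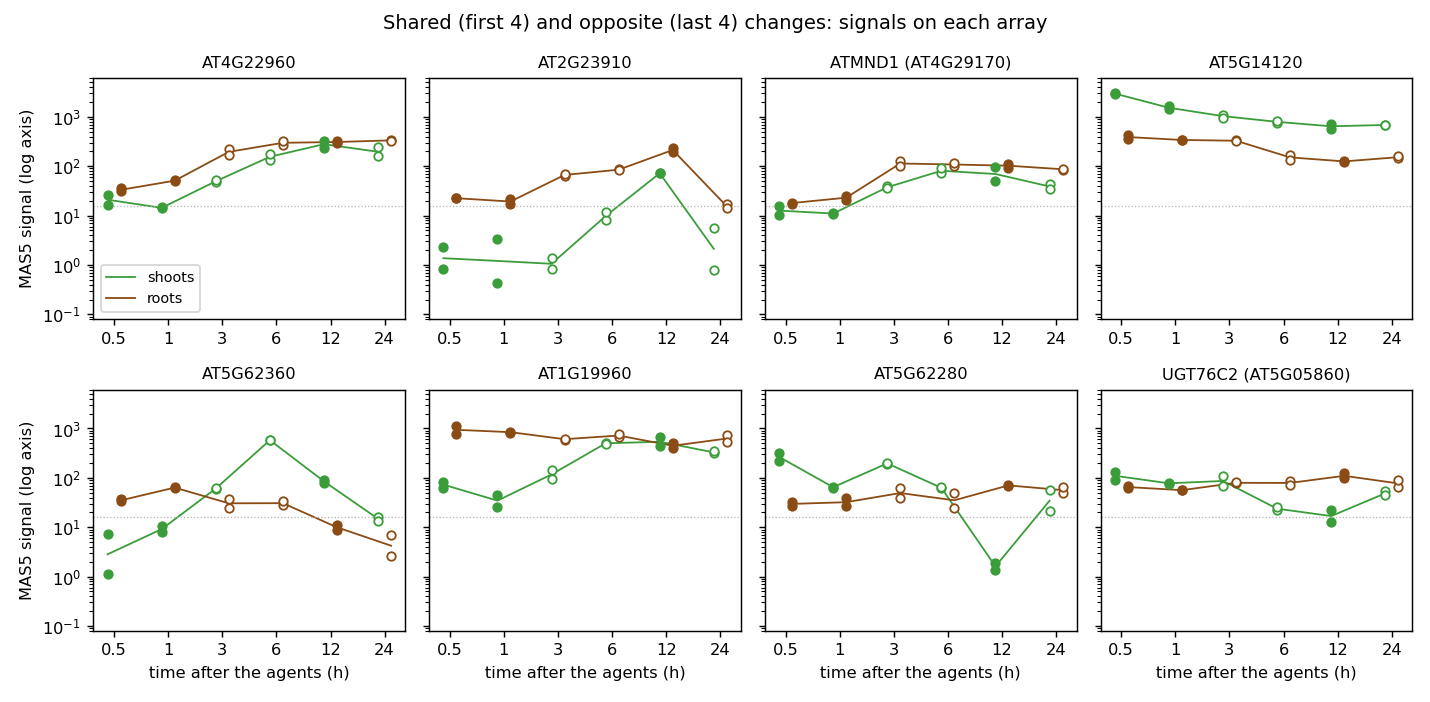
MAS5 signals on a log axis are plotted for each array against time in shoots (green) and roots (brown), with lines through the geometric means, filled points for the 0.5, 1 and 12 h arrays, open points for 3, 6 and 24 h, and a dotted line at a signal of 16. AT4G22960, AT2G23910, ATMND1 and AT5G14120 moved the same way in both organs by 12 h, while AT5G62360 and AT1G19960 rose in shoots and fell in roots, and AT5G62280 and UGT76C2 did the reverse.

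The largest fall assigned to shoots was at AT5G48490. Its shoots signals were 1953 and 1683 at 0.5 h, 534 and 568 at 1 h, and 59.1 and 106 at 12 h, whereas its roots signals stayed between 13.5 and 15.3 on all 6 arrays, near the value of 16 added before the log. All 4 early shoots arrays lay above both 12 h arrays. The shoots change was -3.41 (SE 0.13, adjusted p = 3.6e-12), a 10.7-fold fall, against 0.04 in roots. AT1G66100 behaved alike, with shoots signals of 913 and 1335 at 0.5 h, 1350.2 and 1423 at 1 h, and 167 and 178 at 12 h and roots signals between 7.09 and 10.5. Since both were dim in roots, a fall there could not have been seen.

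Some falls assigned to shoots were at genes with a clear signal in roots, others not. AT5G35970 fell by 2.83 in shoots, from between 841 and 1127 to 123 and 123, and read 43.7 to 53.4 on the 6 roots arrays, a change of 0.17. AT1G19450 fell from between 654 and 802 to 111 and 117 in shoots (change -2.53, SE 0.09), while its roots signals were 417 and 387 at 0.5 h, 399 and 385 at 1 h, and 321 and 350.3 at 12 h (change -0.23, adjusted p = 0.138). AT1G55960 fell by 2.45 in shoots and changed by 0.03 in roots, and AT3G28220 fell by 2.47 in shoots with roots signals of at most 6.44. AT1G76240 differed between the early times in shoots, at 75.0 and 82.8 and then 345 and 393, and was below both at 12 h, at 16.3 and 13.9. AT1G02660 had fallen most of its way by 1 h, from 537 and 609 to 62.4 and 113, and read 21.5 and 20.9 at 12 h.

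AT1G62510 fell in both organs but 10.9-fold more in shoots. Its shoots signals were 1086 and 1207 at 0.5 h, 905 and 1247 at 1 h, and 46.1 and 32.5 at 12 h, and its roots signals were 29.6 and 50.6 at 0.5 h, 40.2 and 38.4 at 1 h, and 7.45 and 21.3 at 12 h. The changes were -4.35 and -0.90, and the roots call was lost without any of 4 roots arrays, among them roots 12 h replicate 1 (adjusted p = 0.467). AT4G27450, from the low-oxygen list, fell by 3.55 in shoots, with signals of 1189.6 and 1266 at 0.5 h, 258 and 283 at 1 h, and 32.7 and 37.5 at 12 h. In roots it stayed bright, at 1419.6 and 1644 at 0.5 h, 1341 and 1277 at 1 h, and 1068 and 1001 at 12 h, and its change of -0.45 did not pass (adjusted p = 0.261). Here the organs began at like signals and at 12 h stood far apart, without overlap.

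The largest rise assigned to shoots was at AT1G07050. Its shoots signals were 7.99 and 5.09 at 0.5 h, 6.19 and 0.615 at 1 h, and 252 and 334 at 12 h, and no roots array used exceeded 3.83. The change was 3.88 (SE 0.14, adjusted p = 2.07e-12), and at 6 h against the same baseline the change was already 3.84. By 24 h it was 0.30. AT4G30660 was expressed in both organs. It rose in shoots from between 60.3 and 71.8 to 439 and 583, and stayed between 199.8 and 224 in roots, so roots were above shoots early and below them at 12 h.

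AT4G30650, which lies beside AT4G30660 in the annotation with no protein-coding gene between them, rose in both organs by unequal amounts, by 4.07 in shoots and 1.10 in roots. The roots call was lost without roots 12 h replicate 1 (adjusted p = 0.0859). AT4G16146 rose by 3.29 in shoots and by 0.60 in roots, where the call was likewise lost without that array (adjusted p = 0.152). AT2G43550 rose in shoots from between 90.2 and 135 to 635 and 909, and its roots change of -0.38 did not pass. The other rises of shoots were AT5G59670 (2.81), AT1G20120 (2.59), AT2G39920 (2.53) and AT1G68600 (2.36). All 4 were dim in roots, with no roots signal above 9.35.

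**Figure D4:**
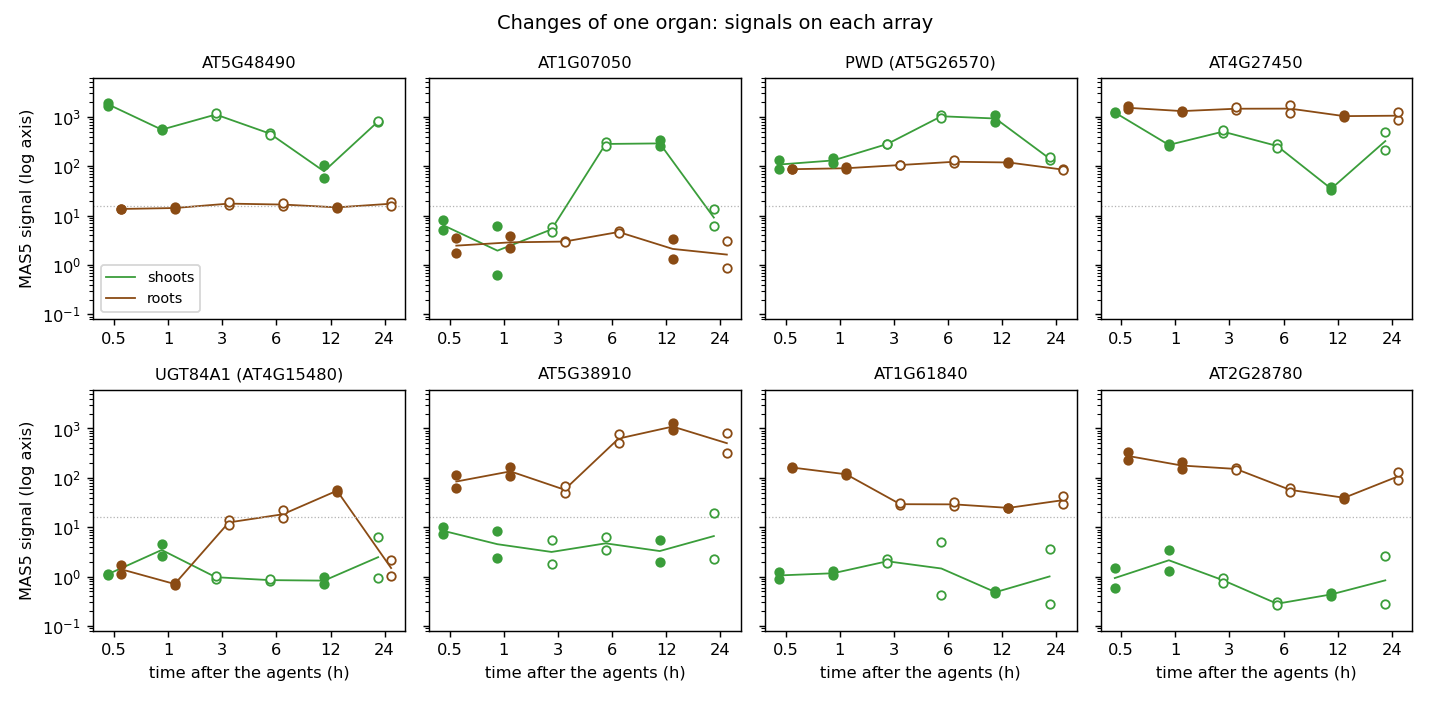
MAS5 signals on a log axis are plotted for each array against time in shoots (green) and roots (brown), drawn as in the plot of shared and opposite changes. In the upper row AT5G48490 and AT4G27450 fell and AT1G07050 and PWD rose in shoots while no roots change passed the test, and in the lower row UGT84A1 and AT5G38910 rose and AT1G61840 and AT2G28780 fell in roots, with shoots at low signals.

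AT5G38910 had the largest rise in roots among the 10 most positive tissue differences. Its roots signals were 114 and 62.2 at 0.5 h, 110.3 and 166 at 1 h, and 1292 and 926 at 12 h, and its shoots signals were at most 9.98. The roots change was 3.16 (SE 0.33, adjusted p = 5.4e-06), a rise of 8.97-fold, with both 12 h arrays above every early array. Within the class of roots, AT2G22590 rose by 2.61 from between 9.45 and 13.9 to 128 and 171. UGT84A1, a glucosyltransferase of hydroxycinnamic acids, was at most 1.75 on the 4 early roots arrays and 52.2 and 57.8 at 12 h, a change of 2.06 on a scale that compresses it. Its change at 24 h was 0.04 against the same baseline. In shoots it never exceeded 4.60.

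CHIL, a chalcone isomerase-like protein of flavonoid synthesis, was expressed in both organs. It rose in roots from 131 and 128 at 0.5 h and 110.3 and 89.1 at 1 h to 361 and 415 at 12 h, and read 67.1 and 75.2 at 0.5 h, 79.5 and 90.0 at 1 h, and 83.6 and 100.3 at 12 h in shoots. Its roots change was 1.64 (SE 0.14, adjusted p = 7.15e-07) and its shoots change 0.20 (adjusted p = 0.33). UGT78D2, a flavonoid glucosyltransferase, rose by 1.39 in roots, to 263 and 309, and changed by 0.10 in shoots. Its shoots change was 0.44 and passed (adjusted p = 0.0137) against 0.5 h alone, and was -0.24 (adjusted p = 0.218) against 1 h alone. DFR and UF3GT, which act late in anthocyanin synthesis, rose in both organs, DFR by 1.14 in shoots and 1.22 in roots and UF3GT by 1.20 and 0.88. Of the 26 genes of the phenylpropanoid and flavonoid list 4 were measured. The fourth, HCT of lignin synthesis, fell in shoots by 0.62, and its tissue difference of 0.51 lost its call without shoots 12 h replicate 1 (adjusted p = 0.0768) or roots 12 h replicate 1 (adjusted p = 0.0989). Other rises of roots were PDF2.1, a plant defensin (1.67), AT1G78990 (1.79) and AT1G68240 (1.46), all under a signal of 10 in shoots.

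The 6 largest falls assigned to roots were at genes with shoots signals under 14, where shoots could not have shown a fall. AT1G61840 read 159 and 165 at 0.5 h, 112 and 125 at 1 h, and 25.0 and 24.4 at 12 h in roots and at most 1.28 in shoots. It fell by 1.93 (SE 0.12), and both 12 h arrays lay below every early array. AT2G28780 fell from between 149.9 and 338 to 40.9 and 38.2. The remaining falls were AT1G15640 (-2.21), AT5G19110 (-2.15), AT5G52710 (-2.14) and GAT1_2.1, annotated as a glutamine amidotransferase (-1.85). A dimmer probe set of GAT1_2.1 gave a tissue difference of 0.10, against -1.77 for the one used. At 3 h against the same baseline the roots change was already -1.77 for AT1G61840, -1.79 for AT1G15640 and -1.83 for AT5G19110. AT5G19110 lies beside AT5G19120, counted above as shared against the mean of the early times, with no protein-coding gene between them.

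Ranked by the smaller of the organs' absolute changes, the opposite changes were led by AT5G62360, which crossed over between the organs. In shoots its signals were 7.15 and 1.12 at 0.5 h, 10.7 and 7.83 at 1 h, and 80.5 and 89.6 at 12 h, and in roots they were 36.6 and 33.3 at 0.5 h, 64.6 and 62.5 at 1 h, and 8.87 and 11.2 at 12 h. Roots lay above shoots early and below them at 12 h on every array. The changes were 2.17 in shoots and -1.29 in roots, a difference of -3.46 (SE 0.19, adjusted p = 2.39e-09). AT1G19960 rose in shoots from between 26.3 and 84.2 to 434 and 671 and fell in roots from between 772 and 1146 to 394 and 508. Its difference of -4.01 (SE 0.29) was the largest negative one among named genes, and its roots call was lost without roots 12 h replicate 1 (adjusted p = 0.102).

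AT2G43530, 2 protein-coding genes away from AT2G43550, rose by 1.92 in shoots and fell by 0.89 in roots. AT1G30260 rose by 1.74 in shoots and fell by 0.99 in roots. AT5G52760 rose by 1.30 in shoots and fell by 1.09 in roots, where its call was lost without roots 12 h replicate 2 (adjusted p = 0.0524).

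In the other direction, HYH, a bZIP factor that acts with HY5 in light signalling, fell in shoots and rose in roots. Its shoots signals were 61.5 and 54.4 at 0.5 h, 187 and 165 at 1 h, and 50.6 and 34.0 at 12 h, and its roots signals were 39.99 and 34.6 at 0.5 h, 35.2 and 38.5 at 1 h, and 85.4 and 82.2 at 12 h. The early shoots arrays were not at 1 level, with 1 h above 0.5 h, while the roots arrays at 12 h lay above all 4 early ones. The changes were -1.04 and 0.91, a difference of 1.96 (SE 0.17, adjusted p = 5.13e-07). The shoots change of HYH was -0.36 (adjusted p = 0.0675) against 0.5 h alone, not called, and -1.73 (adjusted p = 6.97e-08) against 1 h alone. AT5G62280 had the largest positive difference among named genes, 3.98 (SE 0.32). It dropped in shoots from between 63.2 and 318 to 1.88 and 1.39 and in roots went from between 26.7 and 38.2 to 72.0 and 68.8. The rise in roots (adjusted p = 0.0172) was lost without any of 4 roots arrays, up to an adjusted p of 0.135 without roots 12 h replicate 1.

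UGT76C2, a cytokinin N-glucosyltransferase, fell in shoots from between 76.4 and 132 to 21.9 and 12.95 and rose in roots from between 55.9 and 67.6 to 124 and 97.4. The difference was 2.43 (SE 0.23, adjusted p = 1.27e-06), and the roots call was lost without roots 12 h replicate 1 (adjusted p = 0.156). AT3G57020 fell by 1.07 in shoots and rose by 0.80 in roots. AT1G10640, at -0.75 in shoots and 0.84 in roots, rested on shoots 12 h replicate 1. Its shoots 12 h signals were 31.4 and 87.9, and its difference of 1.59 became 1.03 (adjusted p = 0.0513) without that array. Its shoots change was then -0.19 (adjusted p = 0.703), and the shoots call was also lost without any 1 of the 4 early shoots arrays (adjusted p between 0.0618 and 0.0801). Its roots call was lost without any of 9 arrays, up to an adjusted p of 0.223.

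Of the 16 evening-phased clock genes listed 3 were measured, and of the 14 morning-phased ones 1. COR27, a cold- and clock-regulated gene that peaks near dusk, rose in both organs but 4.65-fold more in shoots on the log2(signal + 16) scale. Its shoots signals were 1.13 and 0.691 at 0.5 h, 1.07 and 1.80 at 1 h, and 116 and 151 at 12 h, and its roots signals were 0.929 and 2.45 at 0.5 h, 5.88 and 0.851 at 1 h, and 17.8 and 18.6 at 12 h. The changes were 3.11 and 0.89, a difference of -2.22 (SE 0.18, adjusted p = 1.99e-07). AT4G33980 followed the same order, by 2.53 in shoots and 1.13 in roots, with a difference of -1.40. COR27 gave 24 h changes against that baseline of -0.03 (shoots) and -0.07 (roots).

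GI (GIGANTEA), a clock protein whose RNA peaks before dusk, read 53.7 and 64.3 at 0.5 h, 113 and 104 at 1 h, and 76.6 and 127 at 12 h in shoots and 143 and 162 at 0.5 h, 182 and 181 at 1 h, and 108 and 103 at 12 h in roots. Its shoots 12 h arrays overlapped the early ones (change 0.25, adjusted p = 0.271), whereas roots fell by 0.59. Its shoots change was 0.57 (adjusted p = 0.0261) without shoots 12 h replicate 1, so that 3 of the 3 measured evening genes then rose in shoots, against 2 with it. GI had been higher at 6 h, by 2.46 (shoots) and 0.81 (roots) against the same baseline. The tissue difference of -0.84 was -1.16 (adjusted p = 0.00176) without shoots 12 h replicate 1, but lost its call without shoots 12 h replicate 2 (adjusted p = 0.135) or roots 12 h replicate 2 (adjusted p = 0.0574). The roots call was lost without any of 5 roots arrays, up to an adjusted p of 0.146. The morning-list locus, AT5G52660, passed no test and read 44.7 to 77.5 on the 12 arrays. AT1G69570, from the photoperiod list, fell by 1.87 in shoots and 1.05 in roots, and its difference of 0.82 lost its call without roots 12 h replicate 1 (adjusted p = 0.0692). That difference was 1.34 against 0.5 h alone and 0.31 (adjusted p = 0.455) against 1 h alone.

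Of 45 genes of starch and sucrose metabolism 6 were measured, of which 4 rose in shoots. In roots 1 fell and no rise passed by limma's adjusted p, though 1 rise passed there when either shoots 0.5 h array was left out, and 4 had a negative tissue difference. The medians of the 6 were 0.998 in shoots and 0.10 in roots, against -0.04 and 0.01 over all probe sets. PWD, which phosphorylates starch granules so that they can be broken down, read 136 and 86.1 at 0.5 h, 116 and 148 at 1 h, and 794 and 1079 at 12 h in shoots and 87.4 and 86.8 at 0.5 h, 87.3 and 94.97 at 1 h, and 120.2 and 118 at 12 h in roots. Both shoots 12 h arrays stood apart from all others, with a change of 2.80 (SE 0.14, adjusted p = 7.67e-11) against 0.36 in roots (adjusted p = 0.11), where the 12 h arrays also lay above all 4 early ones. DPE1, which acts on short glucans from starch in the chloroplast, rose by 1.78 in shoots, from between 72.5 and 81.0 to 274 and 340.0, and changed by -0.14 in roots. ATSPS4F, a sucrose phosphate synthase, rose by 1.16 in shoots and was dim in roots. SBE2.2, a starch branching enzyme, stayed at 518 to 711 in shoots and fell in roots from between 112 and 124 to 68.6 and 66.4 (change -0.68). The counts in shoots and of the difference were the same without shoots 12 h replicate 1.

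Some genes that plants switch on when sugar runs short fell more in shoots than in roots. Of 28 listed 7 were measured, and 6 fell in shoots, 2 fell in roots and 4 had a positive tissue difference, with medians of -0.88 in shoots and -0.40 in roots. AKINBETA1, a subunit of the energy-sensing SnRK1 kinase, read 645 and 686 at 0.5 h, 221 and 218 at 1 h, and 87.9 and 73.2 at 12 h in shoots and 179 and 201 at 0.5 h, 194 and 196 at 1 h, and 131 and 141 at 12 h in roots. It fell by 2.06 in shoots and 0.45 in roots, and the roots call was lost without any of 5 roots arrays, up to an adjusted p of 0.261. MCCA, of leucine breakdown, fell by 2.15 in shoots and changed by -0.40 in roots (adjusted p = 0.105).

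Within this list the early shoots arrays differed. AT3G15450 read 3649.9 and 3904 at 0.5 h, 283 and 302 at 1 h, and 142 and 142 at 12 h in shoots and 1780.3 and 2067 at 0.5 h, 1849 and 1650.0 at 1 h, and 862 and 854 at 12 h in roots, so the largest step in shoots lay between 0.5 h and 1 h. Its tissue difference was 1.70 with both baselines, 3.44 against 0.5 h alone and -0.045 (adjusted p = 0.948) against 1 h alone. BZIP53, a bZIP factor of the low-energy response, similarly had a shoots change of -1.38 against 0.5 h and 0.18 (adjusted p = 0.496) against 1 h. MCCA and AKINBETA1 kept their tissue differences against 1 h alone, at 1.32 (adjusted p = 0.00133) and 0.82 (adjusted p = 0.0201). Without roots 12 h replicate 1 or 2 the count of roots falls in this list was 1. MCCB, the partner subunit of MCCA, rose in shoots by 0.33, a call lost without any 1 of the 12 arrays.

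**Figure D5:**
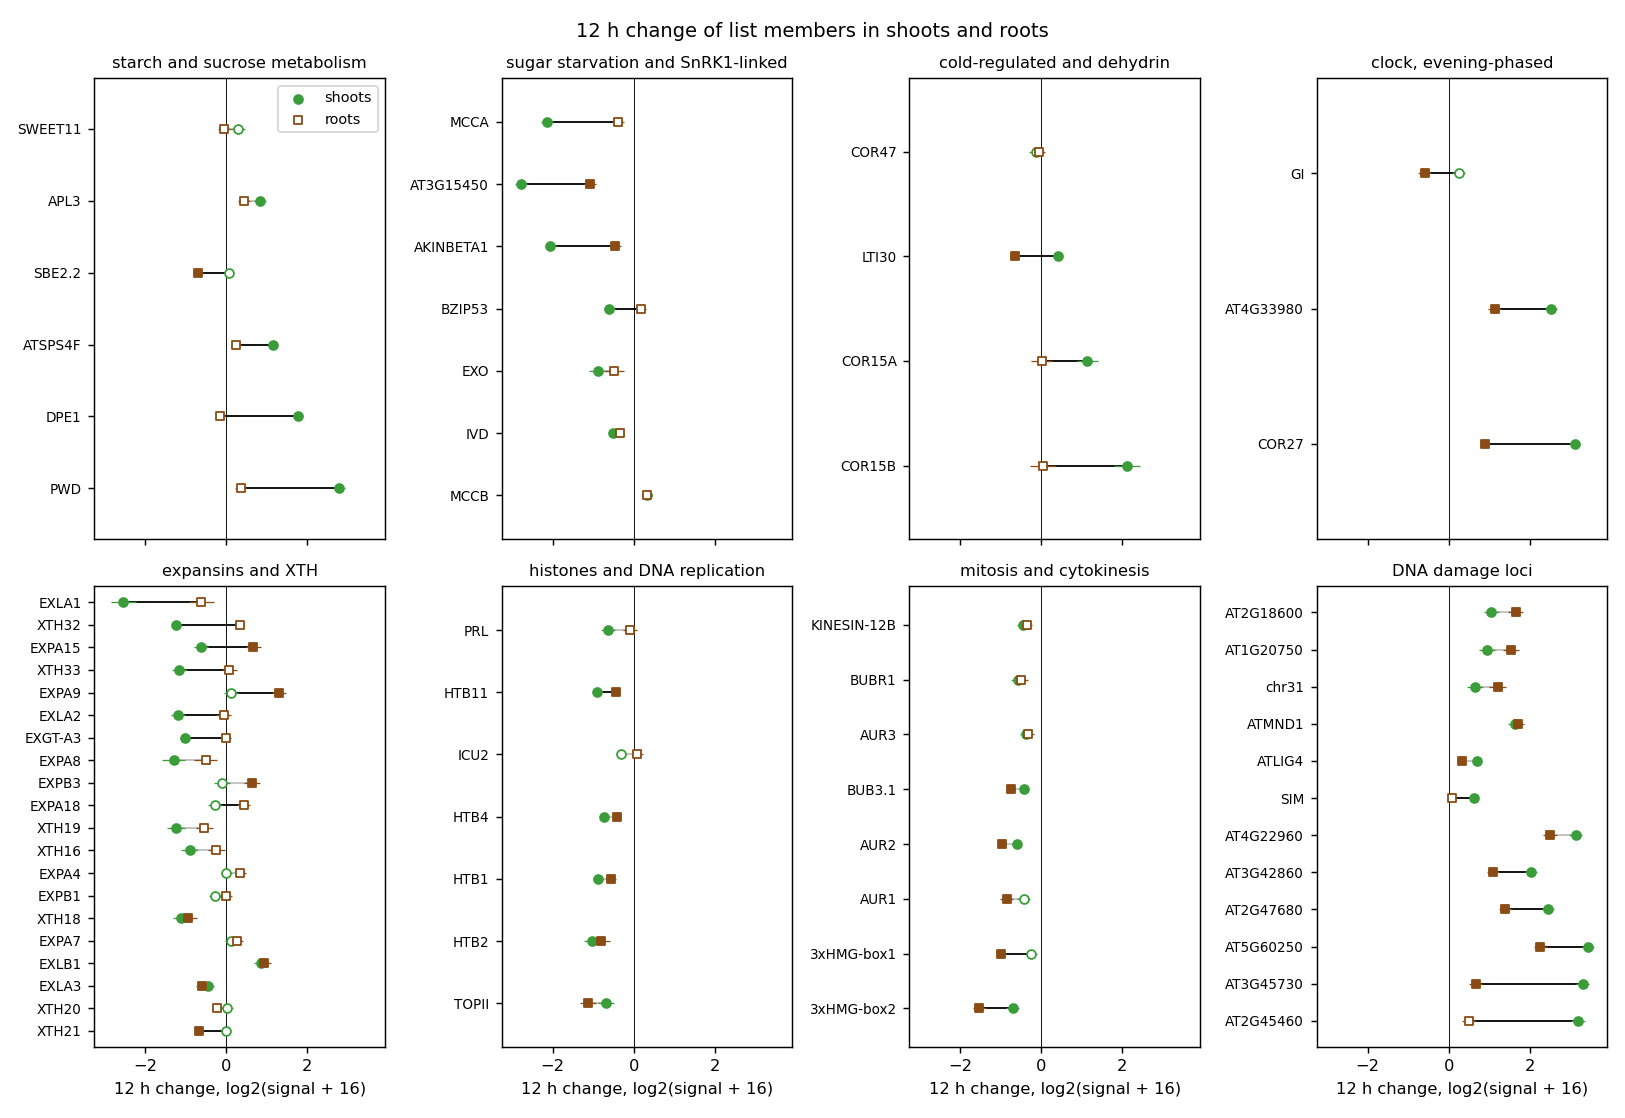
For the measured members of 8 gene lists, the 12 h change in shoots (green circles) and roots (brown squares) is plotted as a difference in log2(signal + 16) with its limma SE. Filled symbols passed the test and a black line joins changes whose tissue difference passed. Where the tissue difference passed, starch, cold and evening clock genes lie farther right in shoots and sugar starvation genes farther left in shoots. All 8 mitosis genes lie left of 0 in both organs.

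Some photosynthesis genes fell in both organs. Of 46 nuclear genes listed 7 were measured, of which 3 fell and 1 rose in shoots and 3 fell in roots. LHCB4.1, a minor antenna protein of photosystem II, fell by 0.50 in shoots and 0.48 in roots, and PSAN, a photosystem I subunit, by 0.88 and 0.77, with tissue differences of 0.01 and 0.11. LHCB4.2 read 6430.4 and 5675 at 0.5 h, 5228 and 5534 at 1 h, and 1309 and 1833 at 12 h in shoots, a fall of 1.87 against -0.52 in roots, where its signals were 31.3 to 71.7. LHCB4.3 of the same antenna family rose in shoots, from between 548 and 693 to 1049 and 1545. Its difference of -0.60 lost its call without any of 7 arrays, up to an adjusted p of 0.282 without shoots 12 h replicate 2. Without roots 12 h replicate 1 or 2, 1 member fell in roots.

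Genes of chlorophyll and carotenoid synthesis that fell did so in both organs. Of 22 genes listed 6 were measured, 3 fell in shoots, the same 3 fell in roots, and no tissue difference passed. AT1G74470, annotated as geranylgeranyl reductase, which makes the tail of chlorophyll, read 4428 and 3875 at 0.5 h, 3839 and 3789.6 at 1 h, and 1632 and 2093 at 12 h in shoots and 214 and 173 at 0.5 h, 176 and 199.8 at 1 h, and 112 and 117 at 12 h in roots. It fell by 1.10 and 0.66, and in each organ the 12 h arrays lay below every early array. CHLM, which methylates magnesium protoporphyrin, fell by 0.67 and 0.50, and the lycopene cyclase LYC by 0.38 and 0.54. The roots call of CHLM was lost without roots 12 h replicate 1 (adjusted p = 0.059) or 2 (adjusted p = 0.0984), and the shoots call of LYC without shoots 12 h replicate 1 (adjusted p = 0.219).

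Cold-regulated genes rose in shoots. Of 21 listed 4 were measured, of which 3 rose in shoots and 1 fell in roots, and 3 had a negative tissue difference. COR15B, a chloroplast protein that protects membranes in the cold, went in shoots from between 24.3 and 54.7 to 134 and 331, and stayed at 10.9 to 19.9 in roots. Its difference was -2.09 (SE 0.46, adjusted p = 0.00386), and -2.69 without shoots 12 h replicate 1, the lower of the 12 h arrays. COR15A, its neighbour in the annotation with no protein-coding gene between, differed by -1.13 (adjusted p = 0.046), a call lost without any of 9 arrays, up to an adjusted p of 0.315. Without shoots 12 h replicate 2, 1 of the 4 rose in shoots. LTI30, a dehydrin, was bright in roots, at 1189 and 1214 at 0.5 h, 1327 and 1509.8 at 1 h, and 900.2 and 748 at 12 h, and fell there by 0.66. In shoots it was dim, at 11.7 to 27.3, and changed by 0.42, a call lost without shoots 12 h replicate 2 (adjusted p = 0.125).

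Wall-loosening genes fell in shoots while several expansins rose in roots. Of 42 expansins and xyloglucan endotransglucosylases (XTH) listed 20 were measured. In shoots 11 fell and 1 rose, in roots 4 rose and 3 fell, and 8 tissue differences were positive and 1 negative. The medians were -0.53 in shoots and -0.01 in roots. XTH32 read 229 and 268 at 0.5 h, 327 and 286 at 1 h, and 99.5 and 117 at 12 h in shoots and 43.3 and 39.99 at 0.5 h, 46.4 and 47.1 at 1 h, and 60.6 and 58.7 at 12 h in roots. It fell by 1.23 in shoots, below every early array, while its roots change of 0.33 missed the threshold (adjusted p = 0.0539), a tissue difference of 1.56 (SE 0.15, adjusted p = 1.33e-06). XTH33 fell by 1.15 in shoots and changed by 0.08 in roots.

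EXPA15, an alpha-expansin, was opposite in the organs, at 84.7 and 63.4 at 0.5 h, 99.3 and 88.8 at 1 h, and 37.3 and 62.6 at 12 h in shoots and 97.5 and 95.9 at 0.5 h, 131 and 131 at 1 h, and 191 and 189 at 12 h in roots. Its difference was 1.29 (SE 0.25, adjusted p = 0.00133) and 1.01 (adjusted p = 0.0146) without shoots 12 h replicate 1, while its shoots call was lost without that array (adjusted p = 0.291) and its roots call without either roots 12 h array (adjusted p = 0.123 and 0.101). EXLA1, an expansin-like protein, fell by 2.54 in shoots, and its difference of 1.93 lost its call without shoots 12 h replicate 2 (adjusted p = 0.0522). Without shoots 12 h replicate 1, 8 members fell in shoots and 7 differences were positive, and without roots 12 h replicate 2, 2 members rose and 1 fell in roots.

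Of 26 auxin genes listed 5 were measured. In shoots 3 fell, against 14.7% of all probe sets, and in roots 1 gene, IAA29, rose, against 5.58%. WES1, a GH3 enzyme that conjugates auxin to amino acids, fell in shoots from 139 and 141 at 0.5 h and 62.4 and 65.7 at 1 h to 22.6 and 24.0 at 12 h. In roots it stayed at 185 to 223, and the tissue difference was 1.46 (SE 0.22, adjusted p = 0.000163). IAA29, a repressor of auxin response, was counted as opposite, with -0.49 in shoots and 0.64 in roots. Its shoots level had dropped by 1 h, and against 1 h alone its tissue difference was 0.45 (adjusted p = 0.346). Its shoots call was lost without any of 5 shoots arrays and its roots call without either roots 12 h array (adjusted p = 0.056 and 0.204).

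Genes of DNA replication and chromatin fell in both organs. Of 31 listed 7 were measured, 6 fell in shoots and 5 in roots, and 1 tissue difference passed. All 4 measured histone H2B genes fell in both, HTB1 by 0.88 in shoots and 0.56 in roots, HTB2 by 1.03 and 0.79, HTB4 by 0.73 and 0.40, and HTB11 by 0.90 and 0.42. HTB11 read 261 and 242 at 0.5 h, 284 and 315 at 1 h, and 143 and 137 at 12 h in shoots and 365 and 342 at 0.5 h, 329 and 343 at 1 h, and 250.3 and 255 at 12 h in roots, with each 12 h array below every early one of its organ. Its difference of 0.48 lost its call without shoots 12 h replicate 2 (adjusted p = 0.0612) or roots 12 h replicate 2 (adjusted p = 0.0566). TOPII, topoisomerase II, fell by 0.67 in shoots and 1.12 in roots. Without roots 12 h replicate 1, 2 of the 7 fell in roots, and 1 of the 4 H2B genes.

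Mitosis and cytokinesis genes fell in both organs, and the 2 tissue differences that passed were negative. Of 32 listed 8 were measured, of which 6 fell in shoots and 5 in roots, with medians of -0.44 and -0.80. 3xHMG-box2, a mitotic chromosome protein, read 102 and 96.4 at 0.5 h, 123 and 121 at 1 h, and 52.5 and 72.0 at 12 h in shoots and 224 and 222 at 0.5 h, 206 and 209 at 1 h, and 67.4 and 60.8 at 12 h in roots. It fell by 0.70 and 1.53, a difference of -0.83 (adjusted p = 0.0175) that lost its call without shoots 12 h replicate 2 (adjusted p = 0.117) or roots 12 h replicate 2 (adjusted p = 0.0755). Its shoots call was lost without shoots 12 h replicate 1 (change -0.52, adjusted p = 0.082). 3xHMG-box1 fell in roots by 0.996 and changed by -0.24 in shoots, a difference of -0.76 (SE 0.18, adjusted p = 0.00786) that was -0.83 (adjusted p = 0.0153) without shoots 12 h replicate 1. AUR1 and AUR2, Aurora kinases, fell in roots by 0.85 and 0.97. The count in shoots rested on 1 array, since without shoots 12 h replicate 1 only 1 of the 8 fell there.

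DNA damage loci rose in both organs. Of 32 listed 12 were measured, and all 12 rose in shoots and 10 in roots, with 6 negative tissue differences and medians of 1.84 in shoots and 1.31 in roots. This list was drawn up from earlier results of these arrays, so its direction is no independent evidence. AT2G45460 read 26.8 and 29.5 at 0.5 h, 28.8 and 41.7 at 1 h, and 429.7 and 407 at 12 h in shoots and 109 and 82.6 at 0.5 h, 257 and 185 at 1 h, and 205 and 221 at 12 h in roots. In roots both 1 h arrays lay above both 0.5 h arrays, and 12 h overlapped 1 h. The roots change of 0.50 did not pass (adjusted p = 0.0609), against 3.20 in shoots. AT3G45730 had the same early step in roots, at 112 and 78.0 and then 251 and 229.9, and ended at 229 and 273, while in shoots it rose by 3.31. The roots call of 0.67 was lost without roots 12 h replicate 2 (adjusted p = 0.15).

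AT5G60250 rose by 3.45 in shoots and 2.27 in roots, to 261 and 238 and 180.4 and 194. AT2G47680 rose by 2.46 and 1.40. ATLIG4, the DNA ligase of end joining, rose by 0.71 and 0.33, and SIM, an inhibitor of cyclin-dependent kinases, by 0.64 in shoots against 0.07 in roots. Without shoots 12 h replicate 1, 10 of the 12 rose in shoots, and 3 positive tissue differences passed beside 6 negative ones.

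Some autophagy genes rose, and the 2 tissue differences that passed were negative. Of 18 listed 11 were measured, 6 rose and 1 fell in shoots, and 4 rose in roots. ATG8D, a ubiquitin-like protein of the autophagosome membrane, read 41.6 and 38.0 at 0.5 h, 45.6 and 38.3 at 1 h, and 146 and 149 at 12 h in shoots and 114 and 100.2 at 0.5 h, 114 and 124 at 1 h, and 176 and 177 at 12 h in roots. It rose by 1.53 and 0.58, a difference of -0.95 (SE 0.14, adjusted p = 0.000102). ATG8H of the same family rose by 1.18 and 0.57, and its difference of -0.61 was lost without any of the 4 arrays of 12 h (adjusted p between 0.0636 and 0.0823). Without shoots 12 h replicate 1, 4 members rose in shoots, and without roots 12 h replicate 1, 2 rose in roots.

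Of 23 genes of iron and metal status 4 were measured, 3 rose in shoots and 2 in roots, and without either roots 12 h array 1 rose in roots. PYE, a transcription factor of the iron-deficiency response, rose by 1.08 in shoots, from between 37.4 and 55.3 to 101 and 119, and changed by 0.15 in roots. Its tissue difference was -0.93 (SE 0.18, adjusted p = 0.00169). Of 19 genes of the low-oxygen list 7 were measured. In shoots 1 rose and 2 fell, and in roots 1 rose and 1 fell, with medians of -0.37 in shoots and -0.73 in roots. PDC2, a pyruvate decarboxylase of fermentation, rose in both organs, by 2.25 in shoots and 1.15 in roots, and without roots 12 h replicate 1 the low-oxygen list had no roots rise. GRX480, a glutaredoxin of stress signalling, fell in roots by 1.11, with signals of 388 and 521 at 0.5 h, 142 and 132 at 1 h, and 118 and 97.9 at 12 h, with the largest step between 0.5 h and 1 h. Against 1 h alone its roots change was -0.31 (adjusted p = 0.552) and its tissue difference -0.93 (adjusted p = 0.0573). GSTU22, a glutathione transferase, rose in roots by 0.90, and its difference lost its call without roots 12 h replicate 2 (adjusted p = 0.0682).

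STZ, a zinc finger repressor of stress responses, had an SE of 0.53 for its difference of -1.61, a call lost without any of 10 arrays, up to an adjusted p of 0.225 without roots 12 h replicate 2. Its shoots change of 1.46 was 1.31 (adjusted p = 0.0724) without shoots 12 h replicate 1. Hsp70-2, a heat shock chaperone, rose by 1.60 in shoots, and its difference was -1.15 (adjusted p = 0.066) without shoots 12 h replicate 1. UGT74B1, of glucosinolate synthesis, had a difference of -0.82 that lost its call without roots 12 h replicate 2 (adjusted p = 0.0743), and its shoots change of 0.53 was 0.53 (adjusted p = 0.0553) without shoots 12 h replicate 1. Of the lists for sulfate assimilation (3 of 15 measured) and nitrogen assimilation (1 of 27 measured) no member passed a test, and of the lists for aquaporins and for abscisic acid no member was measured.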

How the data were processed

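RNA of shoots and roots was measured on 24 ATH1 arrays, 1 colour and 2 arrays a group, of which the 12 of 0.5, 1 and 12 h form the comparison. The deposited signal values are MAS5 intensities, per the submitters' processing notes, which give no version or settings. Such values are summarised array by array, so a difference in overall RNA composition between organs can shift them. The labels do not say whether the 2 arrays came from separate cultures, so p-values measure only the spread between arrays, and the number of arrays limits precision. From these intensities log2(signal + 16) was computed, 64 control probe sets were left out, and 22746 were fitted with limma 3.58.1 (R 4.3.3) as 12 group means over all 24 arrays, with intensity-trended empirical Bayes variances (12 residual and 4.91 prior degrees of freedom) and Benjamini-Hochberg adjustment. The fit was tested on simulated data. Without adjustment, p was under 0.05 for 8494 shoots changes, 5107 roots changes and 6518 differences.

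Of the probe sets, 13513 had 1 annotated gene, 503 several and 8730 are unnamed here. Symbols came from RefSeq (TAIR10.1) through locus tags, which matched 13436 probe sets at 13286 loci, 1535 of them with a symbol. Where 144 loci had several probe sets, the brightest was used. Named genes were the 10 largest tissue differences each way that held without shoots 12 h replicate 1, the 8 largest shared rises and falls, the 6 largest rises and falls of each organ, the 5 largest opposite changes each way, up to 4 passing members of each list and every measured clock gene; the members of lists named beside these were chosen after their values were seen. The members and lists were chosen with earlier results of these data known. Alternatives covered the value added, normalization, filters on dim probe sets, variance model, arrays fitted, replicate block, baseline and each array left out. Promoter sequences were not used here.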

Additional observations from a re-analysis of the deposited data

Results flagged for a closer look

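The tests of the difference between roots and shoots in the 12 h change singled out 3776 probe sets, and 82 of the genes named above are among them. Their differences are given here as the roots minus the shoots change in log2(signal + 16), 38 positive and 44 negative. Many of these genes were dim in 1 organ, where a change is compressed. Where the organs changed in opposite directions, the difference was positive for AT5G62280 (3.98), HYH (1.96), AT3G57020 (1.87), AT1G10640 (1.59), UGT76C2 (2.43), IAA29 (1.12) and EXPA15 (1.29). It was negative there for AT1G19960 (-4.01), AT5G62360 (-3.46), AT2G43530 (-2.80), AT1G30260 (-2.73), AT5G52760 (-2.39) and LTI30 (-1.07). Where shoots passed and the roots change was bounded within 1.5-fold, the difference was positive for AT5G48490 (3.45), AT5G35970 (3.00), AT1G66100 (2.64), AT1G02660 (2.63), AT1G55960 (2.48), AT3G28220 (2.45), AT1G76240 (2.44), AT1G19450 (2.30), BZIP53 (0.78), HCT (0.51), WES1 (1.46), XTH32 (1.56) and XTH33 (1.23). It was negative there for AT1G07050 (-3.92), AT5G59670 (-2.86), AT4G30660 (-2.61), AT1G20120 (-2.39), AT2G39920 (-2.60), AT1G68600 (-2.44), DPE1 (-1.92), ATSPS4F (-0.92), COR15A (-1.13), UGT74B1 (-0.82) and PYE (-0.93). Where shoots passed and the interval of the roots change was too wide to bound it, the difference was positive for AT4G27450 (3.10), LHCB4.2 (1.35), MCCA (1.75) and EXLA1 (1.93). It was negative there for AT2G43550 (-3.09), AT2G45460 (-2.69), LHCB4.3 (-0.60), PWD (-2.43), COR15B (-2.09), Hsp70-2 (-1.30) and STZ (-1.61). Where roots passed and the shoots change was bounded within 1.5-fold, the difference was positive for AT2G22590 (2.34), UGT84A1 (2.18), AT1G78990 (1.67), PDF2.1 (1.66), CHIL (1.44), AT1G68240 (1.50), UGT78D2 (1.29) and GSTU22 (0.89). It was negative there for AT1G15640 (-2.06), AT5G19110 (-2.10), AT5G52710 (-2.14), AT2G28780 (-2.00), AT1G61840 (-1.87), GAT1_2.1 (-1.77), SBE2.2 (-0.75) and 3xHMG-box1 (-0.76). Where roots passed and the interval of the shoots change was too wide to bound it, the difference was positive for AT5G38910 (3.38). It was negative there for GI (-0.84) and GRX480 (-1.46). Where both organs moved the same way by unequal amounts, the difference was positive for AT1G62510 (3.45), AT1G69570 (0.82), AT3G15450 (1.70), AKINBETA1 (1.60) and HTB11 (0.48). It was negative there for AT4G30650 (-2.97), AT4G16146 (-2.69), COR27 (-2.22), AT4G33980 (-1.40), 3xHMG-box2 (-0.83), AT3G45730 (-2.65), AT5G60250 (-1.18), AT2G47680 (-1.06), ATG8D (-0.95) and ATG8H (-0.61).

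Of the 82 genes, 68 kept their call whichever 1 array was left out, and 14 lost it without at least 1 array. The 14 were AT1G10640, GI, AT1G69570, LHCB4.3, COR15A, UGT74B1, HCT, Hsp70-2, EXLA1, 3xHMG-box2, HTB11, ATG8H, STZ and GSTU22. The shoots change of AT3G15450 lay mostly between 0.5 h and 1 h, and its difference of 1.70 was -0.045 against 1 h alone.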

How the results depend on the processing

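Changes were recomputed under 24 alternatives, of which 12 left out 1 array each. The limits of these data are 2 arrays a group, the value of 16 added to dim signals, and an early baseline whose 0.5 h and 1 h groups differed. Leaving out 1 array gave 4701 to 6493 called shoots changes, 1252 to 2594 roots changes, 2679 to 3784 tissue differences, 389 to 772 shared changes, 1255 to 2210 changes of shoots, 301 to 512 of roots and 94 to 173 opposite ones. Against 1 h alone the counts were 1431 roots changes, 380 shared, 288 of roots and 106 opposite, and 4 values turned sign: the shoots changes of AT5G19120 (0.17), BZIP53 (0.18) and IAA29 (0.11) and the tissue difference of AT3G15450 (-0.045). Changes of roots numbered 180 with 1 added to each signal, 848 with 64 added and 351 without the dimmest 50% of probe sets. All other counts of these 7 results were within 1.5 times the reported ones under the other alternatives. Of the named results, 57 of 82 tissue differences, 69 of 82 shoots changes and 44 of 66 roots changes kept direction and call under every alternative in which they were tested. Most named results were picked by size or by passing, so these counts do not stand for all probe sets. The share of tissue differences that were positive was 50.5%, and 41.9% with each array centred on its median. Replicate numbers were not treated as pairs in the main fit. Of 15 pairs of the groups used, 1 had deviations correlated above 0.1 (range -0.191 to 0.105), namely shoots 12 h with roots 12 h. Over all groups 6 of 66 pairs did. Such correlations cannot show whether same-numbered arrays came from the same plants, and the labels do not say. With the replicate block 3744 tissue differences were called. A planned search of promoters for motifs was not run, since sequences were not used here.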

Other observations

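Gene families outside the lists above, chosen and named after their values were seen, are given with counts to be read against the shares over all probe sets (13.6% rising and 14.7% falling in shoots, 5.58% and 5.34% in roots, 8.39% positive and 8.21% negative differences). Of 29 serine carboxypeptidase-like genes, 5 rose and 4 fell in shoots and 3 rose and 3 fell in roots. Tissue differences were negative for 4 and positive for 3, or 1 positive without shoots 12 h replicate 1. SCPL49 rose by 2.90 in shoots and 0.48 in roots (difference -2.42 (SE 0.13, adjusted p = 2.39e-09)), and scpl35 by 2.14 in shoots against 0.20 in roots. Of 15 tetraspanins, 5 fell in shoots, none passed in roots by limma's adjusted p, and 3 had a positive difference. These were TET8 (1.11), TET10 (1.04) and TET6 (0.94), and without shoots 12 h replicate 1, 3 tetraspanins fell in shoots. Among beta-glucosidases BGLU44 rose by 1.82 in shoots and changed by -0.25 in roots, and BGLU25 rose by 0.70 in shoots and fell by 0.47 in roots. SWEET sugar transporters fell in shoots at 5 of 14 genes. SWEET2 had a difference of 1.73 (SE 0.22, adjusted p = 2.68e-05), and SWEET16, a vacuolar transporter, fell in both organs by 0.84 and 1.44. Of 14 bZIP factors 3 had a positive difference, led by BZIP61 (1.95) and BZIP34 (1.16).

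Of 69 genes of the plastid genome, 9 rose in roots and 15 had a positive tissue difference, while the 6 that fell in shoots were a smaller share than over all probe sets, with medians of -0.23 in shoots and 0.25 in roots. Without roots 12 h replicate 1 no member rose in roots and none had a positive difference. Without shoots 0.5 h replicate 1 the positive differences numbered 22 and the falls in shoots 10, and without shoots 12 h replicate 1 they numbered 10 and 4. Falls in shoots numbered 1 without shoots 12 h replicate 2, and 2 members rose in shoots without shoots 0.5 h replicate 2. The part of these arrays in that pattern was not otherwise tested. The plastid gene with the largest positive difference was psbK, of photosystem II (1.03 (SE 0.25, adjusted p = 0.00828)). UDP-glycosyltransferases, 47 in all, had 8 positive and 8 negative differences, and without roots 12 h replicate 2, 4 were negative. Of these, UGT88A1 fell by 1.21 in shoots and UGT71B1 rose by 1.26, while their roots changes of -0.04 and 0.12 did not pass.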
